A study of Caenorhabditis elegans with 10 samples.

Results

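The step from 1 h to 3 h after feeding was measured in whole first-stage (L1) larvae of Caenorhabditis elegans, wild-type strain N2, that were resuming development after arrest. It was defined as the comparison of the 2 libraries taken 3 h after feeding with the 2 libraries taken 1 h after feeding, 4 of the 10 libraries of the study, with no starved library in the contrast. Embryos had hatched without food during 24 h in liquid at 20 °C, which left the larvae about 12 h into L1 arrest, and the culture was then fed E. coli HB101 at 25 mg/mL. All larvae carried the same wild-type genotype, and all fed groups had passed through the same arrest. The 3 libraries of starved larvae and the 3 libraries taken 6 h after feeding served to place the step in the time course and to estimate the spread between libraries. Polyadenylated RNA was sequenced, and a gene's count was the sum over its exonic bins, the separate pieces into which its exons were divided. No unfed larvae of the same age as the 1 h and 3 h groups were analysed here, so feeding and elapsed time cannot be told apart. The deposited notes call the libraries of a time biological replicates, but the labels name no separate cultures, so the p-values measure the spread between these libraries, which may be technical.

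Newly hatched larvae without food halt growth and cell division and live on stored fat, which is broken down by beta-oxidation in mitochondria and peroxisomes. When food arrives, they resume protein synthesis, which needs ribosomes built from ribosomal RNA and ribosomal proteins, and the intestine starts to digest bacteria. Later in the stage the skin, or hypodermis, produces a new cuticle, made largely of collagens, which replaces the old one at the molt.

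Library totals of summed counts were 22748985 and 23923789 at 1 h and 19163997 and 23179502 at 3 h. Reads outside the bins made up 9.73% and 9.83% of the total at 1 h and 8.99% and 8.61% at 3 h, and the 10 highest genes took 7.38% and 6.80% at 1 h and 9.76% and 9.57% at 3 h. Across genes, which are not independent replicates, Pearson correlations of log2 CPM were 0.988 between the 1 h libraries, 0.985 between the 3 h libraries and 0.959 to 0.962 between the times. Levels are given as CPM, a gene's counts relative to the library total after TMM scaling, for replicate 1 and replicate 2 in that order, and changes as log2 fold changes ± SE, 3 h minus 1 h. A gene was called when its adjusted p in edgeR's quasi-likelihood test was under 0.05. In whole larvae, fewer cells of a type and less RNA per cell cannot be told apart.

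Between 1 h and 3 h, 633 of 13226 tested gene units were called higher (4.79%) and 608 lower (4.6%). Of these, 343 rose (2.59%) and 465 fell (3.52%) by more than 2-fold. Counts called in the gene lists below are to be read beside the 4.79% and 4.6%. Without regard to the test, both 3 h libraries lay above both 1 h libraries in 32.3% of units and below both in 33.0%. Where a gene below is said to have no overlap between the times, this describes its values and adds no support to its call. The median log2 change was 1.03 among the called rises and 1.40 in size among the called falls. Scaling by library totals without TMM factors moved the median log2 change of all units from -0.01 to -0.37 and gave 246 higher and 1707 lower, so that 12.6% of the calls were rises in place of 51.01%, and changes are given relative to the bulk of the genes. Most units called in the first hour of feeding were not called in the step. Of the 2696 units higher at 1 h than in starved larvae (20.4% of those tested), 2297 were not called, and of the 2467 units lower at 1 h (18.7%), 2119 were not called. The counts rested on both libraries of each time. They were 157 higher and 220 lower without replicate 1 at 1 h, 107 and 242 without replicate 2 at 1 h, 244 and 258 without replicate 1 at 3 h, and 139 and 163 without replicate 2 at 3 h. Leaving out a starved or 6 h library gave 630 to 773 higher and 600 to 699 lower.

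**Figure D1:**
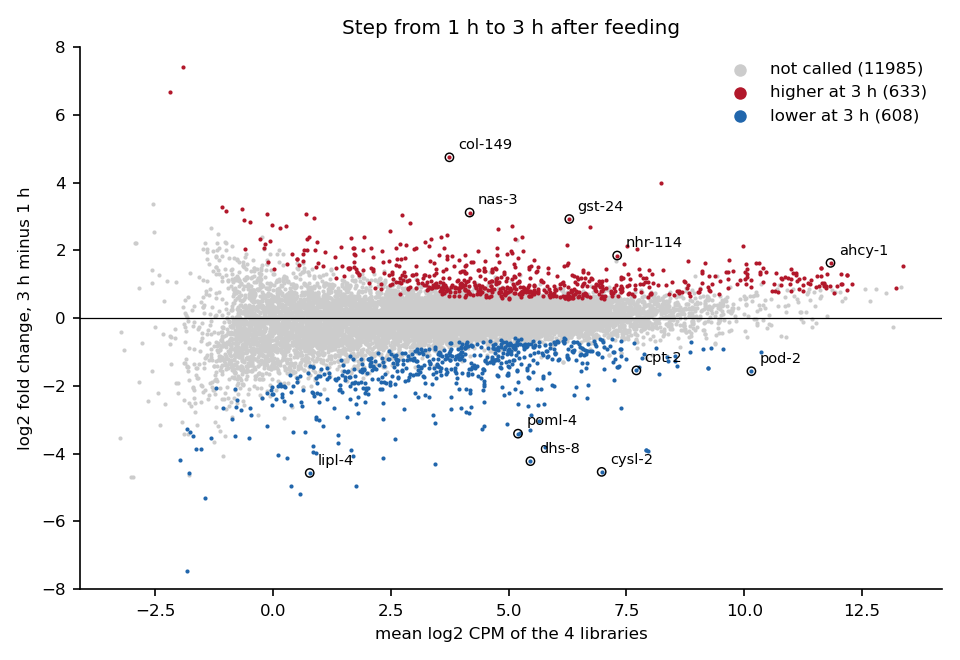
Change of each tested gene unit from 1 h to 3 h after feeding. The x axis is the mean log2 CPM of the 4 libraries, the y axis the log2 fold change, 3 h minus 1 h, and colour marks the 633 units called higher and the 608 called lower, with leading genes circled and named.

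The called units were sorted by whether they reversed, continued or started. Because the 1 h libraries enter both the first hour and the step, with opposite signs, the counts of reversals are not independent of the first hour. After a rise by 1 h, 264 units fell (2.0% of those tested) and 135 rose again (1.02%). After a fall by 1 h, 191 units rose (1.44%) and 157 fell again (1.19%). Among units not called at 1 h, 307 then rose (2.32%) and 187 then fell (1.41%). These are counted as starts, but the lack of a call does not show that a unit had not changed by 1 h. With replicate 1 alone setting the 1 h level against starved larvae and replicate 2 alone setting it in the step, the 6 counts were 105, 38, 37, 52, 78 and 75 in the same order, and with the libraries exchanged they were 107, 22, 32, 63, 51 and 83.

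Reversal did not always mean a return to the starved level. Of the 264 units that rose and then fell, 110 were still called higher than starved at 3 h, 20 were called lower and 134 were not called, where 21.9% of all units were called higher and 19.7% lower. Of the 191 that fell and then rose, 62 were still called lower, 11 higher and 118 not. All 135 that rose again were called higher than starved and all 157 that fell again were called lower. The change from starved to 3 h is the sum of the first-hour change and the step. Calls of the same direction in both therefore largely set these counts of 135 and 157 in advance, and they add no separate result. Of the 307 that started to rise, 272 were called higher than starved at 3 h, and of the 187 that started to fall, 167 were called lower. The called step enters these changes too, beside median first-hour log2 changes of only -0.08 and -0.04. The counts of 272 and 167 are therefore also largely set by the sorting.

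**Figure D2:**
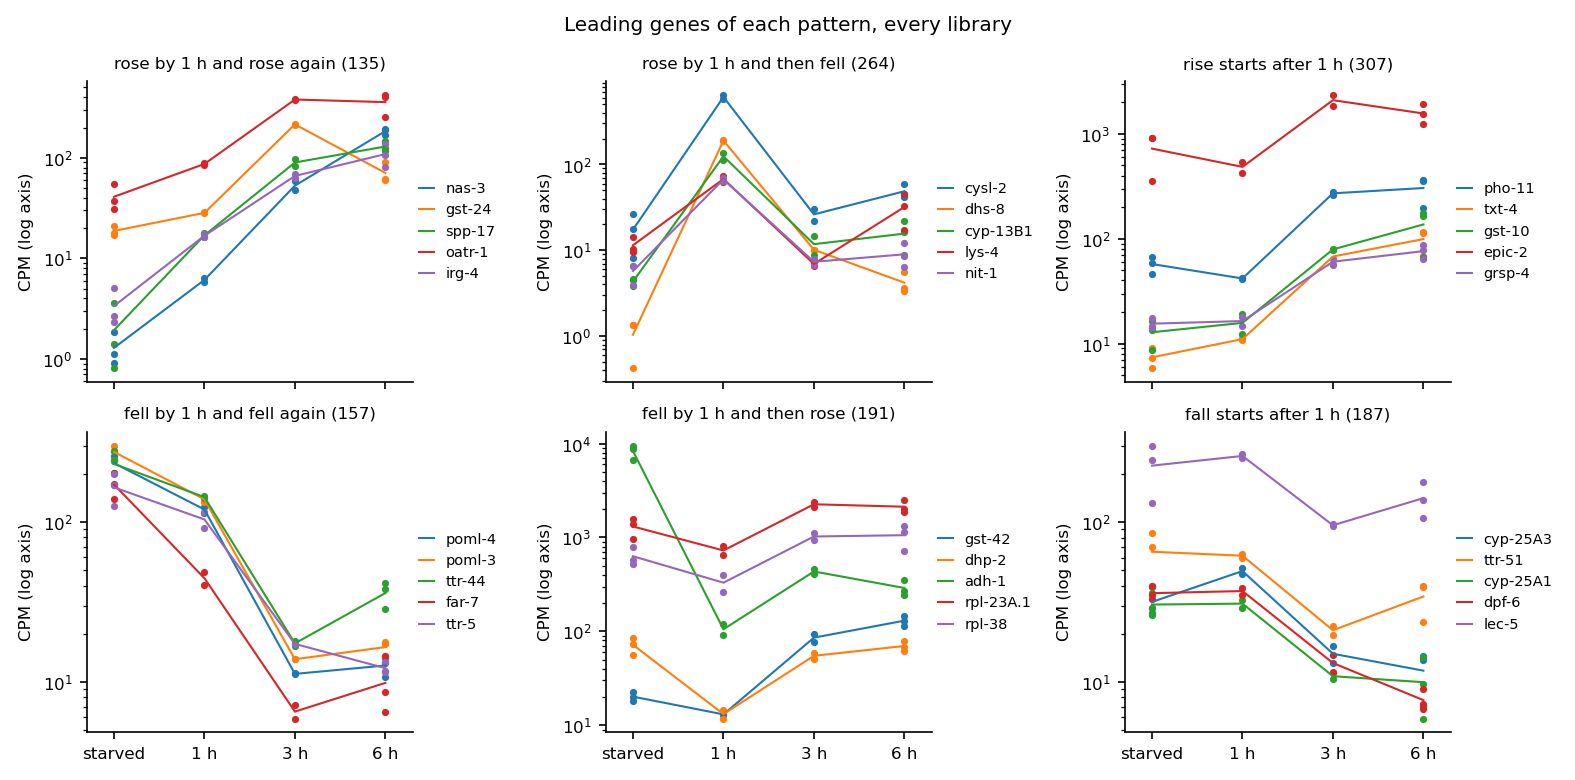
Level of 5 leading genes of each of the 6 patterns in every library. The x axis is the group (starved, 1 h, 3 h, 6 h), the y axis CPM on a log axis, points are libraries, lines join group means, and the number after each pattern is its count of units. cysl-2 and dhs-8 peak at 1 h, while nas-3 and gst-24 rise through 1 h and 3 h.

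Leading falls were ranked among called single-gene units with a symbol, whose log2 CPM averaged at least 4 over the 4 libraries and whose groups did not overlap. Of the 608 called falls, 360 had a symbol. The 2 largest falls in this ranking, of cysl-2 and dhs-8, were rises that had reversed by 3 h. Larger fitted falls, of up to 7.45 in size, belonged to called units outside the ranking. The gene cysl-2 encodes a cysteine synthase family enzyme that handles sulfide and cyanide. Its level was 579 and 641 CPM at 1 h and 21.9 and 30.5 CPM at 3 h, against a starved mean of 17.4 CPM. Both 1 h libraries lay far above both 3 h libraries, and the change was -4.54 ± 0.43 (adjusted p = 3.64e-05). The dehydrogenase family gene dhs-8 stood at 192 and 187 CPM at 1 h and 10.2 and 10.2 CPM at 3 h, with a starved mean of 1.04 CPM. Its change was -4.22 ± 0.33 (adjusted p = 3.72e-06). Lack of overlap between the 1 h and 3 h libraries was a condition for choosing leading genes, so it adds no support. In the WS210 genome build, cysl-2 spans positions 14492730 to 14494417 of chromosome II on the minus strand and dhs-8 positions 14497929 to 14499589 on the plus strand. The genes thus point away from each other with 3511 bases and 0 other binned units between them. The other leading examples had levels several times lower at 3 h in both libraries. The cytochrome P450 gene cyp-13B1 was at 137 and 111.7 CPM at 1 h and 14.7 and 8.85 CPM at 3 h. The lysozyme gene lys-4 was at 73.2 and 62.1 CPM at 1 h and 7.37 and 6.51 CPM at 3 h. The nitrilase family gene nit-1 was at 63.9 and 70.01 CPM at 1 h and 6.77 and 7.92 CPM at 3 h. Their changes were -3.40 ± 0.36, -3.28 ± 0.37 and -3.19 ± 0.31, with adjusted p-values of 5.44e-05, 9.44e-05 and 3.00e-05. The short-chain dehydrogenase genes dhs-18 and dhs-19 changed by -2.85 ± 0.20 and -2.66 ± 0.27. All 7 of these genes were still called when any single library of the 10 was left out.

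Peroxisomal fatty acid oxidation was the list with the largest share of members called lower. Of its 21 tested members, 13 fell and 0 rose, with a median of -0.92 against -0.01 over all tested units, and 12 of the 13 had risen by 1 h. The summed level of the list was 1785 and 1796 CPM at 1 h and 795 and 740.2 CPM at 3 h. The acyl-CoA oxidase gene acox-1.5, for the first step of the pathway, was at 173 and 174 CPM at 1 h and 43.7 and 41.7 CPM at 3 h. All 1 h values exceeded all 3 h values, and the change was -2.02 ± 0.20 (adjusted p = 3.44e-05). A related oxidase gene, acox-1.1, was at 279 and 291 CPM at 1 h and 79.5 and 81.4 CPM at 3 h, changing by -1.82 ± 0.23 (adjusted p = 2.36e-04). The hydratase gene maoc-1, the dehydrogenase gene dhs-28 and the thiolase gene daf-22 carry out later steps, which in the worm also shorten ascaroside pheromone chains. maoc-1 was at 132 and 116 CPM at 1 h and 34.8 and 27.6 CPM at 3 h, dhs-28 at 359.6 and 362 CPM at 1 h and 136 and 127 CPM at 3 h and daf-22 at 160.3 and 141 CPM at 1 h and 66.2 and 53.1 CPM at 3 h. None of the 3 had overlapping groups, as for falls in 33.0% of all tested units. Their changes were -1.99 ± 0.31, -1.46 ± 0.19 and -1.34 ± 0.21. The list also held genes for the building of the organelle and for transport, so its 13 falls are not of pathway enzymes alone. Among these falls were the peroxin genes prx-11 (-1.93 ± 0.21), prx-1, prx-5, prx-12 and prx-13. The exception among the 13 was the transporter gene pmp-5, which fell both by 1 h and in the step. Without replicate 1 or without replicate 2 at 1 h, 8 members were called lower, without replicate 1 at 3 h 9, and without replicate 2 at 3 h 6.

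Mitochondrial fatty acid oxidation showed fewer calls in the same direction. Its summed level was 6605, 4900 and 6478 CPM in starved larvae, 2657 and 2342 CPM at 1 h and 1568 and 1334 CPM at 3 h. Unlike the peroxisomal sum, it was thus already lower at 1 h than in starved larvae, although 9 members were called higher at 1 h and 3 lower. In the step, of 20 members, 6 fell and 0 rose, with a median of -0.82. The carnitine palmitoyltransferase genes, which bring fatty acids into mitochondria, led them. cpt-2 was at 363 and 353 CPM at 1 h and 129 and 116 CPM at 3 h and cpt-5 at 205 and 204 CPM at 1 h and 58.9 and 44.4 CPM at 3 h. Groups did not overlap for either gene, as for falls in 33.0% of all tested units. The changes were -1.55 ± 0.18 and -1.99 ± 0.20, with adjusted p-values of 9.44e-05 and 3.97e-05. Both kept the call without any single library. The fall of cpt-3 was larger, with changes from -3.87 to -3.15 in the fits that left out a library. Its call was lost without any one of the 4 libraries of the step. The acyl-CoA dehydrogenase gene acdh-10 stood at 266 and 266 CPM at 1 h and 96 and 102 CPM at 3 h and returned to near its starved mean of 91.0 CPM. Between 3 and 4 members were called when 1 library of either time was left out.

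Genes that build fatty acids fell as well. Of 21 members of the list of fatty acid synthesis, elongation and desaturation, 7 fell and 0 rose, with a median of -0.29. The acetyl-CoA carboxylase gene pod-2, for the committing step of synthesis, was at 1867 and 2055 CPM at 1 h and 638 and 682 CPM at 3 h. Both 3 h libraries lay well below both 1 h libraries, with a change of -1.57 ± 0.27 (adjusted p = 0.00217), and at 3 h pod-2 was also called below its starved mean of 1084 CPM. The desaturase gene fat-5 was at 372 and 320.5 CPM at 1 h and 147 and 156 CPM at 3 h, and that of another desaturase, fat-3, at 650.2 and 647 CPM at 1 h and 324 and 324 CPM at 3 h. Of the 7 calls, 1 was left without replicate 1 or without replicate 2 at 1 h, 2 without replicate 1 at 3 h and 1 without replicate 2 at 3 h.

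Falls that continued through both intervals included the paralogs poml-3 and poml-4, which resemble mammalian paraoxonases. poml-3 was at 134 and 143 CPM at 1 h and 13.8 and 13.9 CPM at 3 h and poml-4 at 114.5 and 125 CPM at 1 h and 11.3 and 11.1 CPM at 3 h, after starved means of 274 and 233 CPM. All 3 h values were far below the 1 h values, with changes of -3.32 ± 0.19 and -3.41 ± 0.20. Since reads of such similar genes may be shared between them, their separate values are uncertain. The transthyretin-like genes ttr-44 and ttr-5 changed by -3.04 ± 0.25 and -2.58 ± 0.23. The gene far-7, of a family whose proteins bind fatty acids and retinol, was at 48.5 and 40.4 CPM at 1 h and 7.15 and 5.88 CPM at 3 h, with a change of -2.77 ± 0.31 (adjusted p = 9.44e-05). Of 29 genes associated with the stress factor DAF-16 or with stress, 3 rose (10.3%) and 1 fell (3.45%) in the step, with a median of 0.11. That median turned negative with library totals. The member that fell, the superoxide dismutase gene sod-3, was at 8.54 and 7.76 CPM at 1 h and 0.655 and 0.826 CPM at 3 h. It was lower in both 3 h libraries, but its call of -3.45 ± 0.64 (adjusted p = 0.00483) was lost without replicate 1 at 3 h and without replicate 2 at 3 h.

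Lipase genes moved in opposite directions. Of 20 genes for lipases and fat storage, 5 fell and 1 rose, with a median of -0.16, and leaving out 1 library of either time kept 4 falls and the rise. The lysosomal lipase genes lipl-2, lipl-3 and lipl-4 were not called at 1 h and fell afterwards. lipl-3 was at 40.4 and 39.4 CPM at 1 h and 7.04 and 5.59 CPM at 3 h, and lipl-4 at 7.38 and 7.55 CPM at 1 h and 0.328 and 0.292 CPM at 3 h. No 3 h value reached a 1 h value, and the changes were -2.66 ± 0.38 and -4.57 ± 0.47. lipl-1 went the other way, at 8.43 and 6.33 CPM at 1 h and 24.6 and 27.8 CPM at 3 h, with a change of 1.83 ± 0.24 (adjusted p = 3.44e-04). It had fallen from a starved mean of 42.3 CPM and was still called below it at 3 h.

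Rises that continued from the first hour included genes for enzymes, secreted proteins and defence. The astacin protease gene nas-3 was at 5.81 and 6.4 CPM at 1 h and 47.4 and 58.3 CPM at 3 h, after a starved mean of 1.29 CPM. The 3 h libraries were both several times above the 1 h libraries, with a change of 3.11 ± 0.24 (adjusted p = 3.72e-06). The glutathione S-transferase gene gst-24 was at 28 and 28.7 CPM at 1 h and 212 and 218 CPM at 3 h, changing by 2.92 ± 0.22 (adjusted p = 3.72e-06). At 6 h its mean was 70.7 CPM, called below the 3 h level, as were 0.665% of units. The saposin-like gene spp-17 changed by 2.41 ± 0.38 and the infection response gene irg-4 by 1.97 ± 0.31. oatr-1, for ornithine aminotransferase of amino acid breakdown, was at 85.7 and 88.0 CPM at 1 h and 383 and 376 CPM at 3 h, changing by 2.13 ± 0.28 (adjusted p = 3.44e-04).

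Methionine cycle genes included members of high level that rose again. Of 13 members 4 rose and 2 fell, with a median of 0.26 that turned negative with library totals. ahcy-1, for the enzyme that removes S-adenosylhomocysteine, was at 2128 and 2018 CPM at 1 h and 5905 and 6911 CPM at 3 h. Both 3 h libraries exceeded both 1 h libraries, with a change of 1.63 ± 0.24 (adjusted p = 8.59e-04). cth-1, for cystathionine gamma-lyase, was at 339.8 and 359 CPM at 1 h and 831 and 908 CPM at 3 h, changing by 1.32 ± 0.19 (adjusted p = 7.24e-04). Both genes kept their calls without any single library. Leaving out any library of the step left 2 members called higher, and 1 fall was left without replicate 1 at 3 h and 0 without the others. The members called lower, mce-1 and mtrr-1, changed by -0.85 ± 0.22 and -0.78 ± 0.22.

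Cytosolic ribosomal protein genes, of which 0 rose and 5 fell by 1 h, rose in the step. Of 28 small subunit members 20 rose and 0 fell, with a median of 1.15, and of 40 large subunit members 30 rose and 0 fell, with a median of 1.02. Every tested member had a positive log2 change, from 0.37 to 1.72 in the small and from 0.52 to 1.63 in the large subunit. The summed level of the small subunit was 57529 and 45806 CPM at 1 h and 108065 and 113725 CPM at 3 h. That of the large subunit was 74506 and 62219 CPM at 1 h and 126404 and 141136 CPM at 3 h. Both sums were higher in both 3 h libraries, and at 1 h replicate 1 was above replicate 2 in both. rpl-23A.1 was at 809.7 and 644 CPM at 1 h and 2131 and 2381 CPM at 3 h, with a change of 1.63 ± 0.26 (adjusted p = 0.00148), and has a near-identical paralog, so its own share is uncertain. The calls depended on single libraries. For the small and large subunit they numbered 3 and 10 without replicate 1 at 1 h, 0 and 1 without replicate 2 at 1 h, 6 and 13 without replicate 1 at 3 h, and 0 and 2 without replicate 2 at 3 h. With library totals in place of TMM factors, 13 and 16 were called higher and 0 lower.

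**Figure D3:**
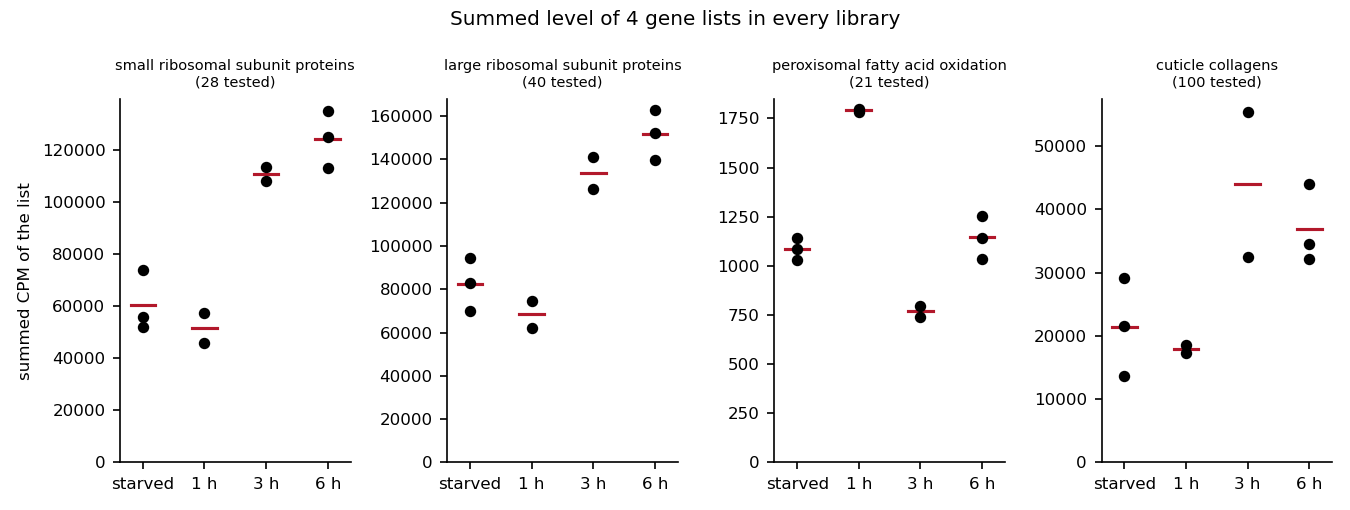
Summed CPM of 4 gene lists in every library. The x axis is the group, the y axis the sum of CPM over the tested members, points are libraries and red lines group means. Ribosomal protein sums are higher in both 3 h libraries than in both 1 h libraries, the peroxisomal sum is lower, and the collagen sum differs widely between the 3 h libraries.

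Other parts of protein production and turnover had a smaller share of their genes called higher, beside 4.79% of all tested units. The shares were 13.6% for the mitochondrial ribosome, 20.6% for the secretory pathway and 24.1% for the proteasome. They were 26.3% for the vacuolar ATPase and 9.30% for translation factors. Of 59 genes for proteins of the mitochondrial ribosome, 8 rose and 0 fell (median 0.37), and mrpl-20, at 19.7 and 17.3 CPM at 1 h and 47.7 and 48.2 CPM at 3 h, kept its call without any single library. Their count was 5 without replicate 1 at 1 h, 1 without replicate 2 at 1 h, 4 without replicate 1 at 3 h and 2 without replicate 2 at 3 h. Genes of the secretory pathway, through which secreted proteins enter the endoplasmic reticulum, had 7 of 34 higher and 0 lower (median 0.25). They included the translocon genes sec-61.B (1.14 ± 0.20), trap-1 (1.07 ± 0.25) and trap-3 (1.19 ± 0.24). Their count was 2, 0, 5 and 1 with the same libraries left out in the same order. Proteasome genes had 7 of 29 higher and 0 lower (median 0.38), led by the core particle gene pbs-3 (0.97 ± 0.17), and 1, 0, 1 and 0 stayed called. Vacuolar ATPase genes, for the pump that acidifies lysosomes, had 5 of 19 higher and 0 lower (median 0.58), and 0 stayed called without any one of the 4 libraries. Translation factor genes had 4 of 43 higher and 0 lower (median 0.29), again with 0 left, and eef-1A.2 was at 7022 and 6935 CPM at 1 h and 12115 and 13663 CPM at 3 h. With library totals alone the medians of the secretory and translation factor lists turned negative.

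Several groups that had moved in the first hour gave no call in the step when edgeR was fitted to all 10 libraries. Nucleolar and ribosome assembly genes had 21 of 26 members higher at 1 h and 0 called either way afterwards (median 0.15, negative with library totals). At an unadjusted p under 0.05, 5 were higher and 0 lower, and DESeq2 called 1 higher. Aminoacyl-tRNA synthetase genes had 21 of 29 higher at 1 h and 0 called in the step (median 0.12, negative with library totals), with 4 higher and 0 lower unadjusted and 2 higher by DESeq2. DNA replication genes had 19 of 32 higher at 1 h and 0 called in the step (median -0.10), with 0 higher and 1 lower unadjusted and 0 by DESeq2. Autophagy genes had 18 of 26 lower at 1 h and 0 called in the step (median 0.11, negative with library totals), with 3 higher and 0 lower unadjusted and 0 by DESeq2. Fitted to the 4 libraries of the step alone, edgeR called 6 nucleolar genes higher and 1 lower, 7 synthetase genes higher and 1 lower, 1 replication gene higher and 3 lower, and 3 autophagy genes higher and 1 lower. With library totals, 7 replication genes, 1 synthetase gene and 1 autophagy gene were called lower. The lack of a call does not show that levels stayed the same. In simulated data for this comparison, a 2-fold change was recovered in 49.3% of genes, a 1.5-fold change in 1.49% and a 4-fold change in 74.2%. Only 200 genes were changed there, fewer than were called here, so these rates are not those of the data.

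Individual falls of the first hour were also reversed, to differing extents. The alcohol dehydrogenase gene adh-1 was at 92.0 and 118 CPM at 1 h and 412 and 456 CPM at 3 h, changing by 2.04 ± 0.26 (adjusted p = 2.99e-04), yet its starved mean was 8314 CPM. The dihydropyrimidinase gene dhp-2, of pyrimidine breakdown, was at 14.5 and 11.7 CPM at 1 h and 51 and 58.7 CPM at 3 h, with a change of 2.06 ± 0.22 (adjusted p = 7.23e-05), and was not called against its starved mean of 71.8 CPM at 3 h. gst-42 was at 13 and 13.1 CPM at 1 h and 77.3 and 94.0 CPM at 3 h, with a change of 2.71 ± 0.20 (adjusted p = 3.54e-06), which took it above its starved mean of 20.2 CPM. The nuclear receptor gene nhr-19 was at 10.8 and 8.99 CPM at 1 h and 28.8 and 28.8 CPM at 3 h. The insulin pathway kinase genes akt-1 and akt-2 rose by 0.70 ± 0.18 and 0.74 ± 0.17, and both calls were lost without any one of the 4 libraries of the step.

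Genes for metal handling changed in both directions, 3 higher and 3 lower of 36, or 8.33% each way beside 4.79% and 4.6% of all tested units. ftn-1, for the iron storage protein ferritin, was at 2.29 and 2.2 CPM at 1 h and 13.3 and 13.3 CPM at 3 h, after a starved mean of 68.6 CPM. smf-3, for a metal importer, was at 22.1 and 18.6 CPM at 1 h and 5.46 and 6.37 CPM at 3 h, after 6.18 CPM in starved larvae. In neither gene did the groups overlap, as in 32.3% of all tested units for rises and 33.0% for falls. The changes were 2.57 ± 0.43 (adjusted p = 0.00241) for ftn-1 and -1.78 ± 0.30 (adjusted p = 0.00197) for smf-3, and both calls were kept without any single library. Of the list, 2, 1, 2 and 1 rises and 2, 2, 4 and 2 falls were called without replicate 1 at 1 h, replicate 2 at 1 h, replicate 1 at 3 h and replicate 2 at 3 h. The heme transporter family gene hrg-4 changed by -1.44 ± 0.31.

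Genes of the cuticle and the molt were among those that started to rise. Of 100 cuticle collagen genes 26 rose and 1, col-153, fell, with a median of 0.71. Of the 26 rises, 16 had no call at 1 h and 10 followed a called fall. The median log2 change of the 100 genes from starved to 1 h was -0.66. Their summed level was 18491 and 17300.4 CPM at 1 h and 32519.6 and 55366 CPM at 3 h. Replicate 2 at 3 h was far above replicate 1, and 25 members were called without replicate 1 at 3 h, against 3 without replicate 2 at 3 h, 4 without replicate 1 at 1 h and 3 without replicate 2 at 1 h. The collagen gene col-149 was at 2.85 and 2.38 CPM at 1 h and 49 and 91.0 CPM at 3 h, with a 6 h mean of 1312 CPM. It was far higher in both 3 h libraries, changed by 4.74 ± 0.35 (adjusted p = 3.54e-06) and was called without any single library. rol-8, which had fallen by 1 h, was at 0.674 and 0.385 CPM at 1 h and 4.59 and 4.28 CPM at 3 h, changing by 3.06 ± 0.47 (adjusted p = 0.00112). col-10, of much higher level, was at 2884 and 2634 CPM at 1 h and 5062 and 8474 CPM at 3 h, so that the 3 h libraries differed from each other as well as from 1 h. Near-identical collagen genes such as col-3 and col-117, or col-12 and col-13, may share reads. The hypodermis markers, 4 of 6 of which were tested, summed to 143 and 157 CPM at 1 h and 159.7 and 169.7 CPM at 3 h with elt-1 called higher, and their part in the collagen result was not tested.

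Of 71 genes of molting and the apical matrix, the coat that precedes the cuticle, 11 rose and 1 fell, with a median of 0.31 that turned negative with library totals. acn-1, which is required for molting and had also risen by 1 h, was at 3.75 and 4.06 CPM at 1 h and 14.2 and 17.9 CPM at 3 h, with a change of 2.04 ± 0.30 (adjusted p = 8.59e-04). The fibrillin-like matrix gene fbn-1 was at 2.47 and 3.39 CPM at 1 h and 12.2 and 12.4 CPM at 3 h, changing by 2.06 ± 0.38 (adjusted p = 0.00444), and the matrix gene let-653 at 7.72 and 9.23 CPM at 1 h and 27.0 and 28.9 CPM at 3 h, changing by 1.72 ± 0.25 (adjusted p = 6.91e-04). Both were higher in both 3 h libraries. The 6 h means of acn-1, fbn-1 and let-653 were 75.8, 125 and 80.4 CPM, and acn-1 and fbn-1 were called higher at 6 h than at 3 h, as were 2.1% of units. The lipocalin gene lpr-2 changed by -1.30 ± 0.20. The number of rises was 4 without replicate 1 at 1 h, 5 without replicate 2 at 1 h and 7 without either 3 h library. Of 10 genes that process and cross-link collagen, 4 rose and 0 fell, among them pdi-2, a subunit gene of prolyl 4-hydroxylase that had also risen by 1 h, at 1139.8 and 1120.0 CPM at 1 h and 1988 and 2531 CPM at 3 h, and only without replicate 1 at 3 h was any of the 4 still called when a library of the step was left out.

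Of 50 transcriptional and signalling regulators, 3 rose and 0 fell, and the 6.0% that rose is near the 4.79% of all tested units. nhr-23, a nuclear receptor gene needed for molting, was at 15.6 and 18.1 CPM at 1 h and 33.8 and 38.7 CPM at 3 h, with a change of 1.11 ± 0.20 (adjusted p = 0.00341), and its 6 h mean was 122 CPM. lin-42, the relative of the clock gene period that times larval events, was at 3.56 and 3.57 CPM at 1 h and 9.34 and 8.94 CPM at 3 h, with a change of 1.36 ± 0.37 (adjusted p = 0.0320). elt-1, for an epidermal GATA factor, was at 22.9 and 20.2 CPM at 1 h and 34.8 and 37.2 CPM at 3 h, with a change of 0.74 ± 0.21 (adjusted p = 0.0386). In all 3 genes both 3 h libraries were above both 1 h libraries. The call of nhr-23 was lost without replicate 1 at 1 h and without replicate 2 at 3 h, and those of lin-42 and elt-1 without any one of the 4 libraries of the step. Values that missed the threshold included daf-12, with a log2 change of 0.78 ± 0.25 (adjusted p = 0.0648), hsf-1, with -0.52 ± 0.17 (adjusted p = 0.0725), and daf-16, with 0.02 ± 0.27 (adjusted p = 0.978). The first of these was called with DESeq2, with the 8 libraries of barcodes 1 to 8, with the 4 libraries of the step alone and without starved replicate 2 or replicate 1 at 6 h, and hsf-1 with DESeq2, with library totals and with the 4 libraries alone, while daf-16 was called with none of the alternatives.

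The remaining starts included genes for a phosphatase, a nuclear receptor and a tubulin. The acid phosphatase gene pho-11 was at 41.4 and 42.1 CPM at 1 h and 279 and 263 CPM at 3 h, changing by 2.70 ± 0.28 (adjusted p = 4.70e-05). The nuclear receptor gene nhr-114 was at 88.1 and 78.6 CPM at 1 h and 294 and 305 CPM at 3 h, changing by 1.85 ± 0.24 (adjusted p = 3.02e-04). tba-8, an alpha-tubulin gene, was at 5.43 and 5.53 CPM at 1 h and 28.1 and 31.9 CPM at 3 h, changing by 2.45 ± 0.26 (adjusted p = 5.44e-05). The groups did not overlap in any of the 3, as for rises in 32.3% of all tested units. All 3 kept the call without any single library. Of 44 tubulin and cilia genes 5 rose (11.4%, beside 4.79% of all tested units) and 0 fell. Only the call of tba-8 did not depend on single libraries of the step. The intestinal actin gene act-5 had already risen by 1 h and rose again. It was at 410.2 and 490.1 CPM at 1 h and 873 and 948 CPM at 3 h, with a change of 1.02 ± 0.23 (adjusted p = 0.0124), a call lost without any one of the 4 libraries.

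**Figure D4:**
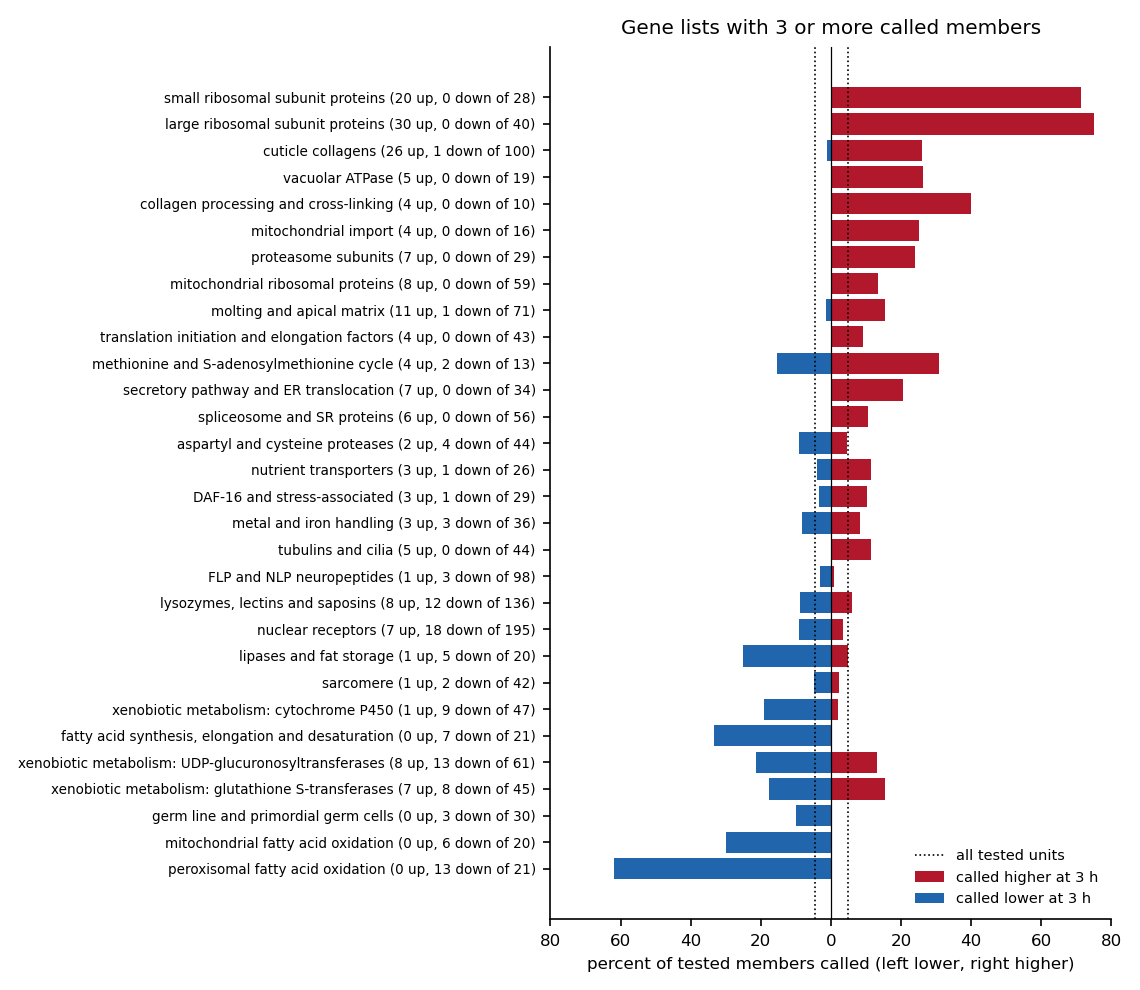
Share of tested members called in the step, for the 30 lists with 3 or more called members. Bars to the right give the percent called higher, bars to the left the percent called lower, and dotted lines mark the 4.79% and 4.6% of all tested units. Ribosomal protein lists extend furthest to the right and peroxisomal fatty acid oxidation furthest to the left.

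Detoxification families were divided. Of 45 glutathione S-transferase genes 7 rose (15.6%) and 8 fell (17.8%). Of 61 UDP-glucuronosyltransferase genes 8 rose (13.1%) and 13 fell (21.3%). Over all tested units the shares were 4.79% and 4.6%. ugt-22 was at 78.7 and 83.3 CPM at 1 h and 228 and 211 CPM at 3 h and ugt-13 at 28.3 and 33.9 CPM at 1 h and 5.30 and 6.95 CPM at 3 h, and their groups lay apart in opposite directions, with changes of 1.44 ± 0.25 and -2.34 ± 0.37. Cytochrome P450 genes had 9 of 47 lower (19.1%) and 1 higher (2.13%), cyp-13A2. cyp-37B1 was at 8.96 and 9.23 CPM at 1 h and 0.983 and 0.437 CPM at 3 h, a change of -3.69 ± 0.30 (adjusted p = 4.74e-06). The P450 falls numbered 7, 6, 6 and 4 without replicate 1 at 1 h, replicate 2 at 1 h, replicate 1 at 3 h and replicate 2 at 3 h. Those of the UDP-glucuronosyltransferases numbered 6, 6, 7 and 3, and those of the glutathione S-transferases 2, 2, 5 and 2. In the same order the rises numbered 2, 2, 2 and 3 for the UDP-glucuronosyltransferases and 5, 3, 5 and 5 for the glutathione S-transferases. Nuclear receptor genes had 18 of 195 lower (9.23%) and 7 higher (3.59%), with 2 to 5 of the falls and 3 of the rises left without a library of the step.

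Markers of the main tissues were present in all 4 libraries. Intestine markers, 6 of 8 tested, summed to 1564 and 1681 CPM at 1 h and 1936 and 1977 CPM at 3 h, with a median log2 change of -0.25. Of these, act-5 was called higher and gained more than the sum did, and the gut esterase gene ges-1 was called lower, at 23.4 and 28.1 CPM at 1 h and 7.86 and 8.80 CPM at 3 h. Germ cell markers summed to 65.6 and 77.2 CPM at 1 h and 37 and 40.9 CPM at 3 h, with nos-1 called lower. Of 30 germ line genes, 29 had a negative log2 change and 3 fell (10.0%, beside 4.6% of all tested units), with a median of -0.70. These calls were lost without any one of the 4 libraries. Body wall muscle markers, 3 of 5 tested, summed to 1717 and 2051 CPM at 1 h and 1376 and 1796 CPM at 3 h, with a median of -0.69. The myosin heavy chain gene myo-3 was the member called lower, at 213 and 255 CPM at 1 h and 88.2 and 113.5 CPM at 3 h, with a change of -1.21 ± 0.28 (adjusted p = 0.0138). The 5 pharynx markers summed to 1681 and 2277 CPM at 1 h and 1458 and 1669.6 CPM at 3 h and 5 of 6 neuron markers to 502 and 578 CPM at 1 h and 531 and 629.8 CPM at 3 h, with 0 called in either set. Oocyte markers summed to 20.5 and 20.3 CPM at 1 h and 10.2 and 13.1 CPM at 3 h, with the yolk receptor gene rme-2 called lower at -1.67 ± 0.38 (adjusted p = 0.0137). The calls of nos-1, myo-3 and rme-2 were lost without any one of the 4 libraries of the step. Adult intestine markers, 4 of 6 tested, summed to 1.27 to 3.06 CPM.

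**Figure D5:**
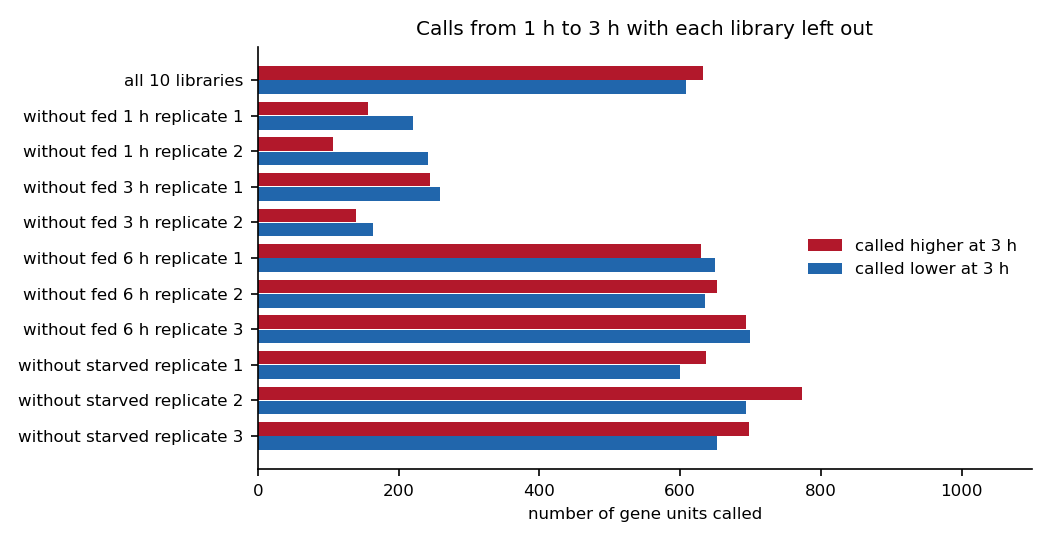
Number of gene units called from 1 h to 3 h with all 10 libraries and with each library left out. The x axis is the number of units called, the y axis the library left out, and colour gives the direction. All 4 fits without a 1 h or 3 h library gave fewer calls, between 107 and 258 in either direction, while the 6 fits without a starved or 6 h library gave 600 to 773.

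Of the 163 called genes chosen for naming, 62 kept their call in all 10 fits that left out a library. Bins of acn-1, akt-1, col-149, cysl-2, dhp-2, dhs-18, dhs-28, fat-5, fbn-1, lpr-2, maoc-1, nhr-19, nit-1, nos-1, pbs-3, pho-11, pod-2, prx-12, sod-3 and ttr-44 overlap a gene on the opposite strand, and since the sources used here do not say whether counting used the strand, these values may hold reads of the partner. In the authors' deposited table of FPKM values, which pools the libraries of a time, 615 of the 618 called rises with a value were higher at 3 h and 595 of the 596 called falls were lower. This compares direction alone, in values from the same libraries.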

How the data were processed

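RNA was extracted with TRIzol, and polyadenylated RNA was decapped, fragmented and sequenced on a SOLiD 4 instrument, per the labels' protocols. Per the submitters' processing notes, the authors used Bowtie 0.12.7 and TopHat for alignment. The deposited count of each exonic bin in each library is a whole number of reads, and the deposited notes name WS210 gene models and the DEXSeq scripts. No source used here gives a strand setting for the counting. Cuffdiff (Cufflinks 1.0.2), set to fragments of mean 150 and SD 40 per those notes, gave the deposited FPKM, in which the authors pooled the libraries of a time, so they carry no error.

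The 108516 bins were summed to 13374 gene units, and a read over several bins counts in each of them. Of these, 257 units merge overlapping genes and were tested but not named. Symbols came from a WBcel235 annotation by sequence name, with 12916 of 13117 single units matched, and positions come from the WS210 bins. Reads outside the bins, 8.35% to 11.4% of a library, were left out. Summed counts ranged from 19163997 to 38607167 per library. The libraries of a time differed beyond sampling noise, with a chi-square per degree of freedom of 24.0 at 1 h and 22.1 at 3 h.

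The test was the quasi-likelihood F-test of edgeR 4.0.16 in R 4.3.3, fitted robustly to all 10 libraries in 4 groups after filterByExpr, with TMM factors between 0.813 and 1.20, 6 residual degrees of freedom and Benjamini-Hochberg adjustment over 13226 units. 148 units were filtered out. The common biological coefficient of variation was 0.206, and log2 CPM used a prior count of 2. SE is the log2 fold change divided by the square root of F. DESeq2 1.42.0 served as an alternative, beside other scalings, filters, thresholds, sample sets, the bin with the most reads and each library left out. The procedure was tested on simulated data with 200 changed genes, where 6 of 13003 unchanged genes were called. Figures were drawn with matplotlib 3.10.9.

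Genes were named by rule. Part of the rule used called single-gene units with a symbol, log2 CPM averaging at least 4 and no overlap between the groups. Lack of overlap in genes from this part was therefore set by the choice. From these units the rule took the 12 largest rises, the 12 largest falls and the 5 largest changes of each pattern. It also took the 3 largest called changes in each direction of each of 57 gene lists, the few called members against a list's majority, and all regulators. Members of lists outside this rule, such as acox-1.1, dhs-28, daf-22, acdh-10, let-653 and col-10, were chosen after their values were seen. The members and lists were chosen with earlier results of these data known. Promoter motifs were not analysed here.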

Additional observations from a re-analysis of the deposited data

How the results depend on the processing

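Of the 163 called genes chosen for naming, 0 changed sign under the alternatives run. Over all called units with a value, the authors' deposited table of FPKM had 615 of 618 rises and 595 of 596 falls in the same direction. The sizes of the changes differed more. Among named genes, called or not, the FPKM change lay outside the spread between libraries around the fitted change in 189 and within it in 51. Falls outnumbered rises with upper-quartile factors (590 higher and 617 lower), and medians of several lists turned negative with library totals. The counts of the step (higher, lower) and of the patterns, in the order rose and rose again, fell and fell again, rose then fell, fell then rose, rise starts and fall starts, moved by over 1.5 times as follows, and the cause was not tested unless fewer samples or reads show it. Library totals alone gave 246 higher and 1707 lower, and 57, 275, 691, 66, 123 and 741 for the patterns. The bin with the most reads gave 271 and 313, and 42, 72, 129, 79, 150 and 112. An adjusted p under 0.01 gave 216 and 292, and 46, 71, 131, 62, 108 and 90. A change of over 2-fold in each contrast gave 343 higher, 35 that rose again, 158 that rose and then fell and 89 that fell and then rose, with 106 that fell again, 219 starting to rise and 201 starting to fall. The 4 libraries of 1 h and 3 h alone gave 2020 and 1742, with 2 residual degrees of freedom. DESeq2 gave 917 and 822, with 294 that fell and then rose. The 2 fits that split the 1 h libraries gave 38, 52, 105, 37, 78 and 75, and 22, 63, 107, 32, 51 and 83.

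Leaving out each of the 10 libraries gave 107 to 773 higher and 163 to 699 lower, and in the order above 25 to 166, 48 to 182, 80 to 298, 33 to 223, 49 to 384 and 24 to 231 units. Where 1 library of a time was left, its spread was taken from the other groups. Upper-quartile and RLE factors, the 2 other filters on low counts and the 8 libraries with barcodes 1 to 8 stayed within 1.5 times for these counts.

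Replicate numbers came from sample order and coincide with sets of barcode numbers, which were grouped here. Differences between replicates at 1 h and at 3 h had a correlation of -0.035 over 6385 units, while the other 5 pairs of groups had 0.12 to 0.378. As the groups of the step did not deviate together, the numbers were not taken to pair the samples. The other pairs of groups did so in part, so differences shared by replicate number may enter the spread used in the test, which had no block. With a replicate block, 943 units were higher and 858 lower, and 210 rose again. The block also added the call of daf-12 and 1 rise each among nucleolar, synthetase and autophagy genes.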
